A study of Mus musculus with 3 samples.

Results

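The histone genes of the Hist clusters were examined in 3 populations sorted from mouse bone marrow. Every row of the deposited table whose gene name starts with Hist, a cluster number from 1 to 4 and h was taken, which gave 68 of the 23393 genes used. They comprise 6 genes for linker histone H1, 18 for H2A, 19 for H2B, 12 for H3 and 13 for H4. All 68 names had a transcript model in GENCODE M21, and 1 of them, Hist3h2bb-ps, is annotated as a pseudogene. The Hist1 cluster on chromosome 13 (21715763 to 23934851 in GRCm38, the build also called mm10) held 54 of them. The Hist2 cluster on chromosome 3 (96219865 to 96270132) held 10, the Hist3 cluster on chromosome 11 (58948920 to 58956830) held 3, and Hist4h4 lies alone on chromosome 6 (136801553 to 136804415).

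All cells came from the marrow of C57BL/6 mice and were sorted as LSK cells, the lineage-negative, Sca-1-positive, c-Kit-positive compartment that holds stem cells and early progenitors. GFP+ HSCs were CD48-negative, CD150-positive hematopoietic stem cells with the Map17-GFP reporter on. GFP- HSCs passed the same CD48 and CD150 gates with the reporter off. MPPs, the multipotent progenitors downstream of stem cells, were CD48-positive, CD150-negative and reporter-negative. Each population was represented by 1 library, so replicate error is unknown and nothing was tested. The sources used here do not state the age, sex or number of the mice, or how the reporter was built. Slamf1, which encodes CD150, stood at 2219 in GFP+ HSCs, 2144 in GFP- HSCs and 17 in MPPs, and Cd48 at 64, 168 and 7744 in the same populations, both in the direction of the gates. Pdzk1ip1, the gene of Map17, stood at 5659 in GFP+ HSCs, 3673 in GFP- HSCs and 290 in MPPs. HSCs sorted as reporter-negative thus held its transcript at 0.649 of the level in GFP+ HSCs and at 12.7 times the level in MPPs, so the HSC fractions differ far less in this transcript than either does from MPPs.

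Histone proteins package DNA into nucleosomes, each built from H2A, H2B, H3 and H4, with H1 bound to the linker DNA between them. Most genes of the clusters are replication-dependent: they are transcribed in S phase, and their mRNAs lack introns and end in a conserved stem-loop bound by SLBP in place of a poly(A) tail. Some cluster genes can also end at a poly(A) site farther downstream, and such transcripts are known from cells that have stopped dividing. Adult stem cells divide rarely and MPPs divide more often. The cDNA kit named in the labels' protocols primes reverse transcription at poly(A) tails, so mRNAs that end at the stem-loop are captured poorly, and all levels describe the captured transcripts. How far this selection shaped them was not tested. Because the libraries are bulk samples, fewer cells in S phase and less histone mRNA per cell cannot be told apart.

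The stem-loop was found in the annotated transcripts of 45 of the 68 genes. It was searched as 2 stem arms of 6 bases around a loop of 4 bases, starting with GG and ending with CC. The shared letters are shown for 8 genes because the end of the mRNA decides which transcripts the method can see. Capitals mark the stem-loop and small letters the 5 bases on each side, as DNA from GENCODE M21.
Hist1h1c: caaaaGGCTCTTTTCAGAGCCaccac
Hist3h2a: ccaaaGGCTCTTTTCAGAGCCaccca
Hist1h2ae: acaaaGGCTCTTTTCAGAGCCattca
Hist1h2bg: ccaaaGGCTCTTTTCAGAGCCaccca
Hist2h3c1: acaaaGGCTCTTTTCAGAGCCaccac
Hist1h4d: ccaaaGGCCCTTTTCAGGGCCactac
Hist1h4i: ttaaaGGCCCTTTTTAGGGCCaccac
Hist1h2bb: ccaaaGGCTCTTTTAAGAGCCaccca
A single form, the one of Hist1h1c, was present in 25 genes, all of types H1, H2A, H2B and H3. Another, the one of Hist1h4d, was present in 7 genes, all of type H4, and Hist2h4 shares the form of Hist1h4i. The form of Hist1h2bb, with a different loop, was found in 6 genes. On GRCm38 the stem-loop of Hist1h1c lies at chr13:23739512-23739527 on the plus strand and that of Hist1h4d at chr13:23581950-23581965 on the plus strand. That of Hist3h2a lies at chr11:58955172-58955187 on the plus strand and that of Hist2h3c1 at chr3:96247327-96247342 on the plus strand. The annotated transcript runs on past the stem-loop by 840 bases in Hist1h1c, 1643 in Hist3h2a, 770 in Hist1h4d and 23 in Hist1h2bb.

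Promoter windows were shown for the 4 genes on which the comparisons turn: Hist1h1c, which alone of the abundant members was higher in both HSC fractions than in MPPs, Hist1h1b and Hist1h4d, which in GFP+ HSCs were farthest below MPPs among the genes of their types past the level limit used for ratios, and Hist1h2ac, which faces Hist1h2bc. Each window covers 250 bases before to 50 after the start in RefSeq (GRCm38.p6), read 5′ to 3′ on the gene's own strand, and capitals mark the motifs searched.
Hist1h1c: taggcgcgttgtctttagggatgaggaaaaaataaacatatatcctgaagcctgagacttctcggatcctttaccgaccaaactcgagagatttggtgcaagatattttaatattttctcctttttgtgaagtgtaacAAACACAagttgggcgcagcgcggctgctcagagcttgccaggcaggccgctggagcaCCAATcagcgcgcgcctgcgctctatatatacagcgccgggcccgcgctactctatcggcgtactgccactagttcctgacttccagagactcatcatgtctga
Hist1h1b: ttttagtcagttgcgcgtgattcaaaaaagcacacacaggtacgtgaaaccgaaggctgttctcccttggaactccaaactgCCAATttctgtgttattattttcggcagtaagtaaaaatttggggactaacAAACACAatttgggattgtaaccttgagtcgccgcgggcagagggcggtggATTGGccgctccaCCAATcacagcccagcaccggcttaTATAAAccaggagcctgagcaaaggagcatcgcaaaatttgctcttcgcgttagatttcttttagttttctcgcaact
Hist1h4d: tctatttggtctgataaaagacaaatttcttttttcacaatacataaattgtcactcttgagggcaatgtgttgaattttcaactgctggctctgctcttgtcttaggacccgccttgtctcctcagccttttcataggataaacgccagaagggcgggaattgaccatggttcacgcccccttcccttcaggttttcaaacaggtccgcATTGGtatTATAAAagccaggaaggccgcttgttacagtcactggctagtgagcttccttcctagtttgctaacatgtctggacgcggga
Hist1h2ac: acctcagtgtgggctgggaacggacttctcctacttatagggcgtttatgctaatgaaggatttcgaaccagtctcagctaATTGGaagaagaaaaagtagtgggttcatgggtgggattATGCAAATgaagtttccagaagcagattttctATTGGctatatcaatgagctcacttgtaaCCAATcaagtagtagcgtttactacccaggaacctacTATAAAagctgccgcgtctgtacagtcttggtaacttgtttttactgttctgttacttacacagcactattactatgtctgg
The windows lie at chr13:23738557-23738856 on the plus strand for Hist1h1c, chr13:21780576-21780875 on the minus strand for Hist1h1b, chr13:23581318-23581617 on the plus strand for Hist1h4d and chr13:23683910-23684209 on the minus strand for Hist1h2ac. A window was found for 61 of the 68 genes. The CCAAT box (CCAAT, or ATTGG on the other strand), which NF-Y binds, stood in 52 of the 61 windows (85.2%) and in 37.4% of all 32817 RefSeq windows. It was present in all 6 H1, 17 H2A, 16 H2B and 10 H3 windows, but in 3 of 12 H4 windows. The TATA box (TATAAA, or TTTATA) stood in 57.4% of the members' windows and 13.6% of all windows. The octamer (ATGCAAAT, or ATTTGCAT), known from H2B promoters, stood in 7 of 17 H2A and 6 of 16 H2B windows, in none of the other types' windows and in 1.74% of all windows. Windows of H2A and H2B genes that face each other can overlap, so a single site can count for both types. The octamer of Hist1h2ae is also that of Hist1h2bg, and CCAAT counts are affected likewise. The H1 box (AAACACA, or TGTGTTT) stood in 5 of 6 H1 windows, at -112 in Hist1h1c and -117 in Hist1h1b, and in 7.19% of all windows. AACACAAA and the letters TTTGGCGC and TTTCCCGC, forms of the E2F site, stood in 3, 0 and 1 of the 61 windows. A CCAAT box and an H1 box were thus present both in Hist1h1c, the highest of the H1 genes in HSCs, and in Hist1h1b, which of the H1 genes was farthest below MPPs in GFP+ HSCs. TATAAA was in the Hist1h1b window and not in that of Hist1h1c, which holds TATATATA, letters that were not searched.

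The levels, in normalized counts, summed over all 68 genes to 8197 in GFP+ HSCs, 8632 in GFP- HSCs and 12945 in MPPs. This was 0.0324%, 0.0340% and 0.0485% of the summed table in the same populations. Of the 68 genes, 51 were above 0 in GFP+ HSCs, 55 in GFP- HSCs and 60 in MPPs, and 7 were listed at 0 in all 3 libraries. Those 7 were Hist1h2bq, Hist1h2br, Hist1h2ao, Hist1h2ap, Hist1h4m and Hist2h2aa1, which have near-identical copies, and Hist1h2ba, known from testis. Reads that match several copies equally may be left uncounted, so a listed 0 in these families need not mean absence.

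To measure this sharing, each annotated transcript was divided into overlapping words of 50 bases, and the words found in a transcript of any other gene on either strand were counted. Over all 68 genes the median share was 51.9%. It reached 100% in 5 genes, among them Hist2h3c1 and Hist2h2aa1, and was 0% in Hist1h1a, Hist1h1b, Hist1h1t and Hist2h2be. Levels of the H3 genes and of most H2A and H2B genes are therefore uncertain as levels of single genes, while the H1 genes share at most 32.0% of their words. Annotated genes also overlap: Trim17, on the strand of Hist3h2a, stood at 8 in GFP+ HSCs, 1 in GFP- HSCs and 3 in MPPs, and Hist1h2be, on the strand of Hist1h1e, at 21, 14 and 34. Neither level was large beside that of the gene it overlaps, and reads in the overlaps may have been counted for either gene or left out.

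Ratios were computed for the 16 genes whose level averaged at least 50. These were 5 H1, 3 H2A, 4 H2B, 1 H3 and 3 H4 genes. Of the other 52 genes, 45 were above 0 somewhere. Just inside the limit stood Hist4h4 with a mean of 50.3, and just outside it Hist1h3a with a mean of 37.0. The limit let in 1 gene, Hist4h4, that reached 50 in MPPs only, and 2, Hist1h1a and Hist1h2ae, that did not reach it in GFP+ HSCs; a gene let in by its level in MPPs had to be lower in the HSCs. Counts over the 16 are therefore given as a description, beside counts over all 68.

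**Figure D1:**
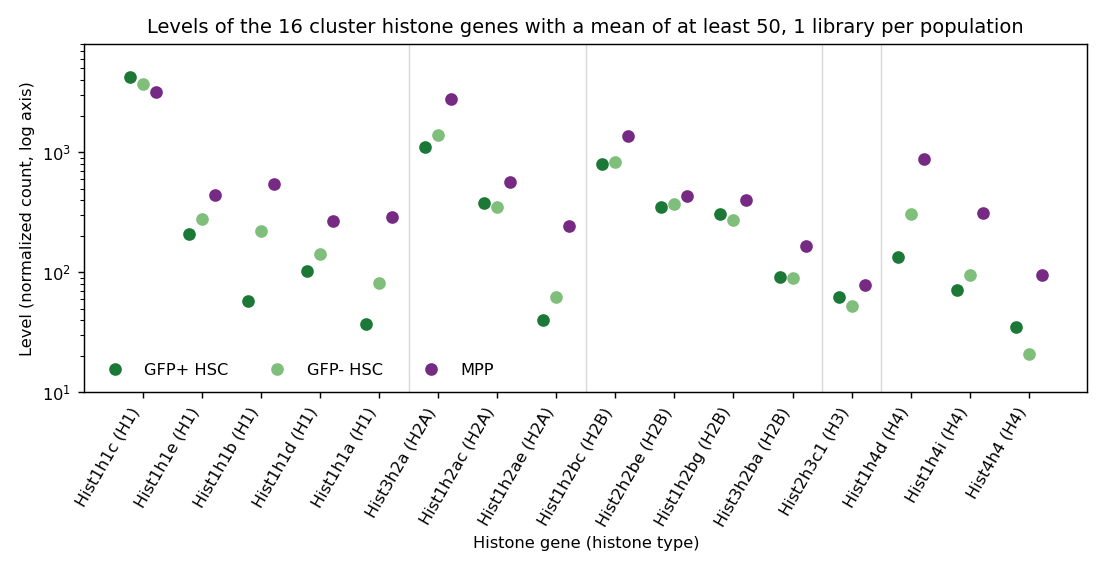
Levels in normalized counts (log axis) of the 16 histone genes with a mean of at least 50, ordered by histone type, with a point for each of the 3 libraries. Hist1h1c is the only gene whose MPP point, 3162, lies below both HSC points, 4211 and 3715.

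Linker histones were divided. Hist1h1c, which encodes H1.2 (chromosome 13, 23738808 to 23740367), stood at 4211 in GFP+ HSCs, 3715 in GFP- HSCs and 3162 in MPPs. Its level was highest in GFP+ HSCs, at 1.33 times that of MPPs. The other H1 genes ran the opposite way. Hist1h1b, which encodes H1.5 (chromosome 13, 21779883 to 21780625), stood at 58 in GFP+ HSCs, 220 in GFP- HSCs and 550 in MPPs. Hist1h1a, which encodes H1.1 (chromosome 13, 23763666 to 23764406), stood at 37 in GFP+ HSCs, 82 in GFP- HSCs and 288 in MPPs. Among the 16 genes these are the steepest differences between GFP+ HSCs and MPPs, 9.48-fold lower in GFP+ HSCs for Hist1h1b and 7.78-fold lower for Hist1h1a. In GFP- HSCs Hist1h1a was farther below MPPs than Hist1h1b, with log2 ratios of -1.75 and -1.30. Some genes under the limit had wider gaps at low levels, such as Hist1h2ab, at 3 in GFP+ HSCs, 18 in GFP- HSCs and 58 in MPPs, and Hist1h2bj, at 2, 7 and 48. Hist1h1e (H1.4) was at 208 in GFP+ HSCs, 281 in GFP- HSCs and 441 in MPPs. Hist1h1d (H1.3) was at 102 in GFP+ HSCs, 141 in GFP- HSCs and 266 in MPPs. Both were lower in the HSC libraries by smaller factors, 2.12-fold and 2.61-fold in GFP+ HSCs against MPPs. The testis gene Hist1h1t stood at 3 in GFP+ HSCs and at 1 in each of the other libraries.

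The summed H1 level was thus nearly the same in the 3 populations while its make-up differed. It was 4619 in GFP+ HSCs, 4440 in GFP- HSCs and 4708 in MPPs, and without Hist1h1c it was 408, 725 and 1546. Hist1h1c made up 91.2% of the H1 sum in GFP+ HSCs, 83.7% in GFP- HSCs and 67.2% in MPPs. With each level divided by the length of the annotated transcript, its share was 91.4%, 80.6% and 59.2% in the same populations. Hist1h1b made up 2.64% of that per-length sum in GFP+ HSCs and 21.6% in MPPs. These shares depend on the GENCODE lengths, 7425 bases for Hist1h1d and 1930 for Hist1h1e, against 776 and 782 in RefSeq. Shares by RefSeq length were not computed. The median log2 ratio of the 5 H1 genes was -0.45 for GFP+ over GFP- HSCs, whereas the ratio of the H1 sums was 0.057, since a single gene carries the sum.

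Among H2A genes, Hist3h2a (chromosome 11, 58954685 to 58956830) stood at 1117 in GFP+ HSCs, 1409 in GFP- HSCs and 2806 in MPPs, 2.51-fold lower in GFP+ HSCs than in MPPs. Hist1h2ac stood at 378 in GFP+ HSCs, 354 in GFP- HSCs and 563 in MPPs. Hist1h2ae stood at 40 in GFP+ HSCs, 62 in GFP- HSCs and 242 in MPPs. All 3 genes encode H2A proteins and were highest in MPPs, but the ratio of GFP+ HSCs to MPPs ranged from -0.57 for Hist1h2ac to -2.46 for Hist1h2ae on the log2 scale. Hist2h2ac, under the limit, was at 10 in GFP+ HSCs, 26 in GFP- HSCs and 58 in MPPs.

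The 4 H2B genes past the limit were all highest in MPPs. Hist1h2bc (chromosome 13, 23684199 to 23692908) stood at 807 in GFP+ HSCs, 836 in GFP- HSCs and 1361 in MPPs. Hist2h2be, an H2B variant that mouse olfactory neurons are known to use, stood at 354 in GFP+ HSCs, 373 in GFP- HSCs and 430 in MPPs. The 2 HSC libraries were alike for these genes, at ratios of 0.97 for Hist1h2bc and 0.95 for Hist2h2be. Hist1h2bg was at 306 in GFP+ HSCs, 272 in GFP- HSCs and 402 in MPPs, and Hist3h2ba at 92, 90 and 165 in the same populations. The 4 H2B genes were between -0.07 and 0.17 for GFP+ over GFP- HSCs and between -0.81 and -0.28 for GFP+ HSCs over MPPs, on the log2 scale. None of the 4 was 2-fold apart in any comparison.

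H3 and H4 genes were at lower levels. Hist2h3c1, the H3 gene that passed the limit, stood at 62 in GFP+ HSCs, 53 in GFP- HSCs and 78 in MPPs, and all of its words are shared with other genes. Hist1h3a was at 19 in GFP+ HSCs, 36 in GFP- HSCs and 56 in MPPs, and Hist1h3d at 13, 19 and 45. Hist1h3i was at 2 in GFP+ HSCs, 6 in GFP- HSCs and 28 in MPPs. The 12 H3 genes were all highest in MPPs, and their sum was 116 in GFP+ HSCs, 137 in GFP- HSCs and 330 in MPPs. Between the HSC fractions the H3 sum was lower in GFP+ HSCs (log2 ratio -0.24) although Hist2h3c1 was higher (0.21). Of the H4 genes, which all encode the same protein, Hist1h4d (chromosome 13, 23581598 to 23582735) stood at 134 in GFP+ HSCs, 308 in GFP- HSCs and 874 in MPPs. Hist1h4i stood at 71 in GFP+ HSCs, 96 in GFP- HSCs and 315 in MPPs. Hist4h4 was at 35 in GFP+ HSCs, 21 in GFP- HSCs and 95 in MPPs, and Hist1h4h at 21, 22 and 39. The H4 sum was 276 in GFP+ HSCs, 471 in GFP- HSCs and 1388 in MPPs, the widest gap of the 5 types at 5.03-fold lower in GFP+ HSCs than in MPPs.

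**Figure D2:**
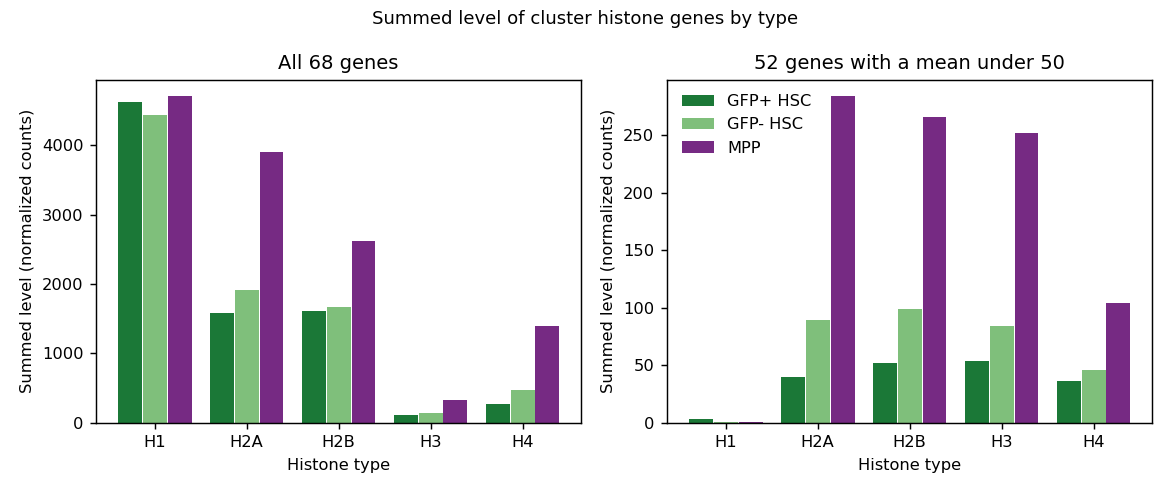
Summed levels (normalized counts) by histone type for all 68 genes (left) and for the 52 genes with a mean under 50 (right), with a bar for each library. H1 sums are close in the 3 libraries, between 4440 and 4708, while H2A, H2B, H3 and H4 sums are highest in MPPs.

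Genes were ranked within a library by their level per kilobase of annotated GENCODE transcript. In GFP+ HSCs Hist1h1c led the 16 genes at 2699 per kilobase, followed by Hist1h2bc at 698, Hist3h2a at 521 and Hist1h2bg at 495. In MPPs Hist1h1c led at 2027, followed by Hist3h2a at 1308, Hist1h2bc at 1177, Hist1h4d at 768 and Hist1h1b at 740. By GENCODE length Hist1h1b was among the highest genes in MPPs, while its level in GFP+ HSCs was 78.1 per kilobase, under that of Hist1h2ac at 152. Undivided, the 2 genes stood at 550 and 563 in MPPs. Neighbours in these orders cannot be told apart without replicates, and the orders depend on the transcript model. As means over the 3 libraries, Hist3h2a was at 828 per kilobase of GENCODE length and 3499 per kilobase of RefSeq length. Hist1h4d, at 385 by GENCODE length, was under Hist1h2bg at 529, but by RefSeq length it was above it, at 1091 and 704. Hist1h1b, at 371 by GENCODE length, was above Hist1h2ac at 174, but by RefSeq length it was under it, at 348 and 886. Orders within a library were not computed by RefSeq length. For Hist1h1d the GENCODE model of 7425 bases gave 22.9 per kilobase, and the RefSeq model of 776 bases gave 219. By type, the summed level per kilobase was 2952 for H1, 819 for H2A, 1558 for H2B, 114 for H3 and 289 for H4 in GFP+ HSCs. In MPPs it was 3421 for H1, 2511 for H2A, 2776 for H2B, 431 for H3 and 1400 for H4. Among cluster genes, H3 thus had the lowest sum of the 4 core histones in both. This is not the captured level of all H3 mRNA. The H3.3 gene H3f3b, outside the clusters, stood at 67999 in GFP+ HSCs and 48405 in MPPs. Reads shared between copies of the cluster H3 genes may also have been left uncounted.

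GFP+ and GFP- HSCs share the same surface gates and were separated by the reporter. With 1 library of each, a difference between them cannot be assigned to the reporter. Hist1h1b was 3.79-fold, Hist1h4d 2.30-fold and Hist1h1a 2.22-fold lower in GFP+ HSCs. These were the 3 of 16 genes that were at least 2-fold lower, a difference found in 0.87% of the 11951 genes compared, and 0 of 16 were at least 2-fold higher, as were 0.41% of all genes. The ratios of the other 13 lay between -0.57 for Hist1h2ae and 0.62 for Hist4h4 on the log2 scale, of level plus 5. Altogether 6 of the 16 were higher and 10 lower in GFP+ HSCs, with a median log2 ratio of -0.20, beside 0.01 for all genes compared. Among all genes compared, 51.7% were higher and 47.8% lower. The 6 histone genes that were higher were Hist1h1c, Hist1h2ac, Hist1h2bg, Hist3h2ba, Hist2h3c1 and Hist4h4. Over all 68 genes, 16 were higher, 38 lower and 14 equal in GFP+ HSCs, and of those equal 5 were above 0 in the HSC fractions. At the 4-fold threshold 0 of the 16 remained apart.

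GFP- HSCs were then set against MPPs, with the reporter off in both. Of the 16 genes, 15 were lower in GFP- HSCs, beside 50.6% of all genes compared, and Hist1h1c was higher, by 1.17-fold. At least 2-fold lower were 6: Hist4h4 (4.52-fold), Hist1h2ae (3.90-fold), Hist1h1a (3.51-fold), Hist1h4i (3.28-fold), Hist1h4d (2.84-fold) and Hist1h1b (log2 ratio -1.30). Hist4h4 passed the limit through its MPP level alone, so its direction here was fixed by the limit. Hist3h2a, at 1.99-fold, was just under this threshold. Of all genes compared, 5.53% were at least 2-fold lower and 11.6% at least 2-fold higher, beside 0 of the 16 histone genes higher. The median log2 ratio was -0.87 over the 16 and -0.01 over all genes. Over all 68, 54 were lower, 3 higher and 11 equal in GFP- HSCs.

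For GFP+ HSCs over MPPs, a comparison that shares its libraries with both of the above, 9 of 16 were at least 2-fold lower, beside 8.61% of all genes, and 0 at least 2-fold higher, beside 13.7%. The 9 include Hist4h4, which passed the limit through its MPP level alone. The ratio ran from -3.14 for Hist1h1b to 0.41 for Hist1h1c on the log2 scale. After Hist1h1b and Hist1h1a came Hist1h4d (6.52-fold lower in GFP+ HSCs), Hist1h2ae (6.05-fold) and Hist1h4i (4.44-fold). Those 5 were at least 4-fold lower, and the share of all genes at 4-fold was not computed. The median was -1.19, beside 0.01 for all genes. Over all 68, 57 were lower, 3 higher and 8 equal in GFP+ HSCs. Among all genes compared, which leave out those under the limit, 49.2% were lower. The 3 histone genes that were higher were Hist1h1c, Hist1h1t and Hist2h2aa2, the last at 2 in GFP+ HSCs and listed at 0 in the other libraries.

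**Figure D3:**
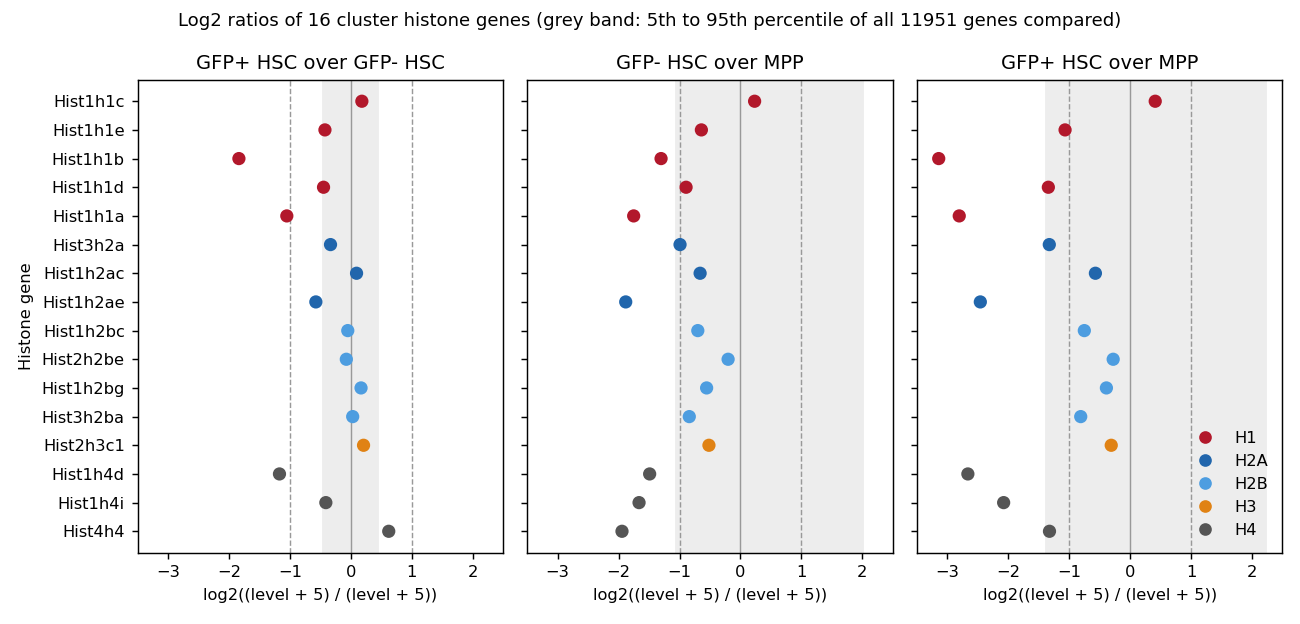
Log2 ratios, with 5 added to each level, of the 16 genes in the 3 comparisons, coloured by histone type; the grey band spans the 5th to 95th percentile of all 11951 genes compared and dashed lines mark 2-fold. Hist1h1b, Hist1h1a, Hist1h4d and Hist1h2ae lie left of the band in every panel, and Hist1h1c lies right of 0 in every panel.

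The 52 genes under the limit were low singly, and their summed levels were 185 in GFP+ HSCs, 319 in GFP- HSCs and 907 in MPPs. The sum was 1.72-fold lower in GFP+ than in GFP- HSCs and 4.90-fold lower in GFP+ HSCs than in MPPs, beside 1.05-fold and 1.58-fold for the sum over all 68 genes. By type, the H2A sum of these genes was 40 in GFP+ HSCs, 89 in GFP- HSCs and 284 in MPPs. The H2B sum was 52, 99 and 266 in the same populations, the H3 sum 54, 84 and 252, and the H4 sum 36, 46 and 104. Each of these 4 sums was in the order of GFP+ HSCs lowest and MPPs highest. That order held for 35 of the 68 single genes and for 10 of the 16 above the limit, and for 32.5% of all genes compared.

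**Figure D4:**
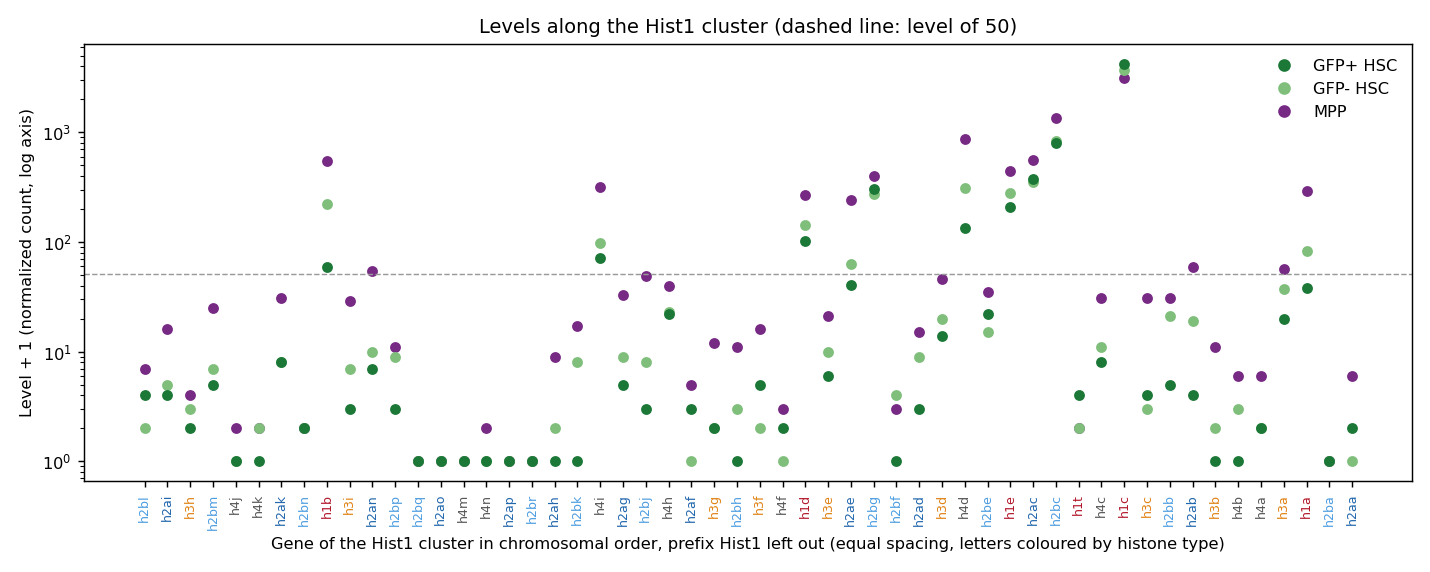
Level plus 1 (normalized counts, log axis) of the 54 Hist1 genes in chromosomal order at equal spacing, with names coloured by histone type and a dashed line at a level of 50. Most genes lie under the line in all 3 libraries, and the MPP point is the highest for most genes, with Hist1h1c the exception among abundant ones.

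How far the annotated transcript runs past the stem-loop went with whether a gene was detected well. Of 23 genes with at least 100 bases annotated after the stem-loop, 12 had a mean of at least 50, whereas 0 of 22 genes with fewer bases did, the highest of these being Hist1h3a. In the other 23 genes no stem-loop was found in the annotated transcript, and 4 passed: Hist1h1a, Hist1h1b, Hist1h2bc and Hist2h2be. A longer model collects more reads, so the medians are also given per kilobase. They were 20.5 for the 23 genes with long extensions, 11.1 for the 22 with short ones and 10.7 where no stem-loop was found. The groups also differed in the share of words found in other genes, with medians of 24.6%, 63.1% and 82.8% in the same order. These differences cannot be separated here, and their part was not tested. The poly(A) signal AATAAA stood somewhere after the stem-loop in 14 of the 23 long transcripts and 0 of the 22 short ones. Among the 12 long transcripts that passed, 6 genes were higher and 6 lower in GFP+ than in GFP- HSCs. The 4 genes in which no stem-loop was found were all lower in GFP+ HSCs. Hist1h2bc and Hist2h2be were only slightly lower, at ratios of 0.97 and 0.95. A stem-loop past the end of the annotated transcript would not have been found. Summed levels of the long group were 6817 in GFP+ HSCs, 6872 in GFP- HSCs and 9607 in MPPs, and those of the short group 76, 167 and 436.

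H2A and H2B genes often lie head to head, sharing the DNA between their starts. With starts at most 500 bases apart, 13 such pairs were found, at gaps of 173 to 306 bases, and every pair joined an H2A with an H2B gene. In 2 pairs both genes passed the limit. Hist1h2ac and Hist1h2bc, 251 bases apart, had similar profiles, with GFP+ over MPP ratios of 0.67 and 0.59. Hist1h2ae and Hist1h2bg, 176 bases apart, did not: in GFP+ HSCs Hist1h2ae was at 0.17 and Hist1h2bg at 0.76 of the MPP level. The pairs Hist3h2bb-ps with Hist3h2a and Hist2h2ac with Hist2h2be each had a single gene past the limit. Genes that share a promoter region thus had like ratios in a single pair and unlike ratios in the other.

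Genes of S phase gave a yardstick for division. All 40 S phase genes, among them the replication helicase genes Mcm2 to Mcm7, were lower in GFP+ than in GFP- HSCs (median log2 ratio -0.47, range -0.92 to -0.13) and lower in GFP- HSCs than in MPPs (median -0.69, range -1.20 to -0.21), with 0 and 4 of the 40 at least 2-fold lower. The sliding clamp gene Pcna stood at 1735 in GFP+ HSCs, 2141 in GFP- HSCs and 3010 in MPPs. Against the range of the S phase genes, 3 of the 16 histone genes lay below it for GFP+ over GFP- HSCs, 5 within it and 8 above it. The 3 below were Hist1h1b, Hist1h4d and Hist1h1a. For GFP- HSCs over MPPs, 6 lay below, 8 within and 2 above, the 2 being Hist1h1c and Hist2h2be. The 6 include Hist4h4, which passed the limit through its MPP level alone. For GFP+ HSCs over MPPs all 40 S phase genes were lower, with a median of -1.21 and 32 at least 2-fold lower. The 16 histone genes had a median of -1.19 there, and 5 lay below the S phase range, 8 within and 3 above. Histone genes thus lay on both sides of the S phase range in all 3 comparisons. All 20 mitosis genes were lower as well, with medians of -0.66 for GFP+ over GFP- HSCs and -1.30 for GFP- HSCs over MPPs, and 0 and 19 at least 2-fold lower. For GFP+ HSCs over MPPs the mitosis median was -1.90, with all 20 at least 2-fold lower. The division marker gene Mki67 stood at 3990 in GFP+ HSCs, 6410 in GFP- HSCs and 10712 in MPPs. The part of division in the histone differences was not tested.

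**Figure D5:**
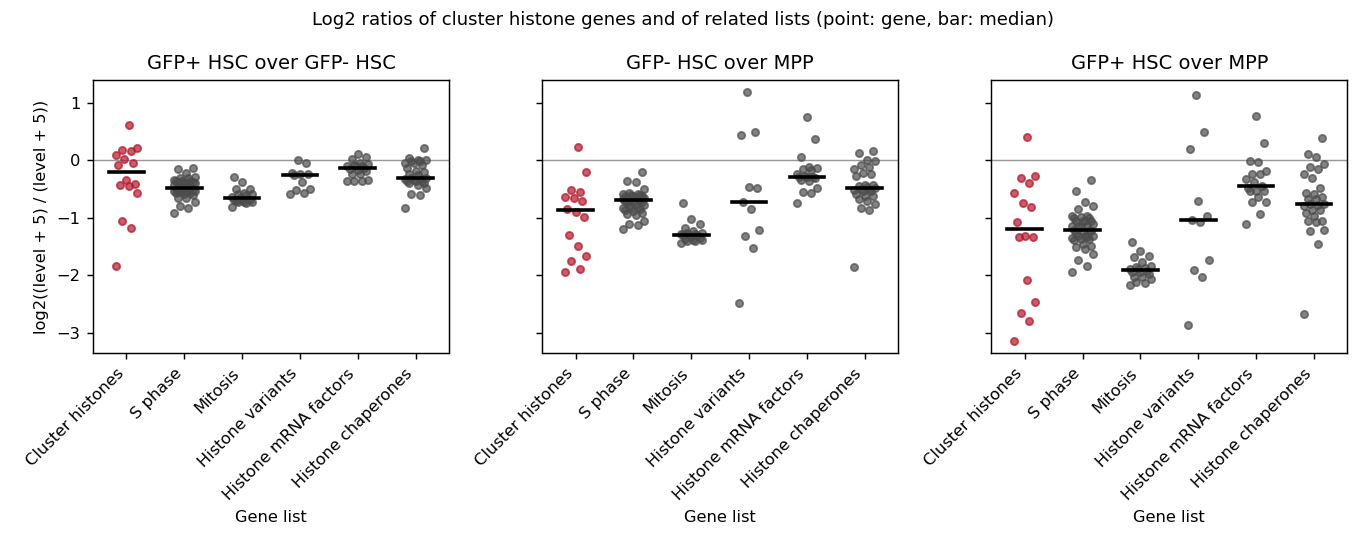
Log2 ratios, with 5 added to each level, of the 16 cluster histone genes and of related lists in the 3 comparisons; a point is a gene and a bar the median. S phase and mitosis genes all lie below 0, while cluster histones spread from -1.84 to 0.62 for GFP+ over GFP- HSCs.

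Most histone variants encoded outside the clusters come from polyadenylated mRNAs and can be made outside S phase, though this need not hold for each listed gene. Of 14 listed variants in the table, 11 passed the limit and 3, H1foo, H2afb1 and H2bfm, were listed at 0. All 11 were lower in GFP+ than in GFP- HSCs, with a median log2 ratio of -0.25 and 0 of them 2-fold apart. Against MPPs they were divided, with 3 higher and 8 lower in GFP- HSCs. The replacement H3.3 gene H3f3b stood at 67999 in GFP+ HSCs, 68062 in GFP- HSCs and 48405 in MPPs. The other H3.3 gene, H3f3a, ran the other way, at 1135 in GFP+ HSCs, 1324 in GFP- HSCs and 1852 in MPPs. H1f0, which encodes the linker histone H1.0 of resting and differentiated cells, stood at 8734 in GFP+ HSCs, 8987 in GFP- HSCs and 3946 in MPPs. It and H1fx (1475, 1755 and 1293 in the same populations) were higher in both HSC fractions than in MPPs, as was Hist1h1c of the clusters. The macroH2A gene H2afy stood at 14746 in GFP+ HSCs, 19124 in GFP- HSCs and 107216 in MPPs. H2afx, whose product marks DNA breaks when phosphorylated, stood at 2875 in GFP+ HSCs, 4329 in GFP- HSCs and 10823 in MPPs. H2afz was at 292 in GFP+ HSCs, 433 in GFP- HSCs and 601 in MPPs.

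Factors that make, process or degrade histone mRNA were within 2-fold between GFP+ and GFP- HSCs and between GFP- HSCs and MPPs. Of 19 listed factors that passed, 16 were lower and 3 higher in GFP+ than in GFP- HSCs (median -0.13), and likewise 16 and 3 in GFP- HSCs against MPPs (median -0.29). Slbp, whose product binds the stem-loop, stood at 3321 in GFP+ HSCs, 4286 in GFP- HSCs and 5467 in MPPs. It is also counted among the S phase genes. Npat, a coactivator of replication-dependent histone transcription, stood at 2126 in GFP+ HSCs, 2229 in GFP- HSCs and 1721 in MPPs, and so was higher in the HSC fractions. The tailing enzyme gene Zcchc6, whose product takes part in histone mRNA decay, stood at 8484 in GFP+ HSCs, 8388 in GFP- HSCs and 4948 in MPPs. Of the other most abundant factors, Snrpb was at 7699 in GFP+ HSCs, 8440 in GFP- HSCs and 10682 in MPPs and Upf1 at 6426, 6860 and 8363.

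Some markers of other cell types moved along with the libraries. Of 6 erythroid markers past the limit, 5 were lower in GFP+ than in GFP- HSCs, and the 11 listed summed to 2961 in GFP+ HSCs, 5368 in GFP- HSCs and 5555 in MPPs, with the 4 globin genes listed at 0 in all 3. All 7 neutrophil markers past the limit were higher in GFP+ than in GFP- HSCs, with sums over 8 of 1735 in GFP+ HSCs, 786 in GFP- HSCs and 816 in MPPs. The 8 T and NK cell markers summed to 905 in GFP+ HSCs, 1610 in GFP- HSCs and 8306 in MPPs, with Cd3e and Cd3g listed at 0 in both HSC fractions. Only 3 of them passed the limit. Nkg7, at 267, 928 and 6433, and Lck, at 370, 399 and 1784, made up most of the sum. Klrb1c ran the other way, at 266, 281 and 39. The 8 B cell markers summed to 918, 781 and 1489 in the same populations, the 8 megakaryocyte markers to 47487, 41474 and 4693, and the 7 monocyte and macrophage markers to 6927, 6894 and 15089. Their part in the histone levels was not tested.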

How the data were processed

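RNA of 3 sorted mouse populations, with 1 library each, was analysed. The submitters' processing notes name the aligner STAR, DESeq2 and the build mm10; the sources used here do not state versions, annotation or the counting tool. The authors deposited whole-number normalized counts, treated here as a score because reads could not be recovered. Depth is therefore unknown, and no counting interval was made. The summed levels were 25311805 in GFP+ HSCs, 25375047 in GFP- HSCs and 26689660 in MPPs. Of 23420 rows, 27 with a date for a name were left out. The cDNA kit does not mark strand, so reads of overlapping antisense genes cannot be separated.

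Log2 ratios used a pseudocount of 5, which understates differences of low genes, for 11951 genes with a mean of at least 50. A fold printed for a gene is the ratio of its levels. No test was possible with 1 library per group. The members and lists were chosen with earlier results of these data known. Values were given for the 4 most abundant members of each type, the highest and lowest ratios, members 2-fold apart between HSC fractions and those at the limit, and for the most abundant and some fixed genes of related lists; Npat was added after its values were seen. The H1 box letters were added after the promoters were seen. Leaving out genes that share over 40% of their words, a minimum over the compared libraries and sums without Hist1h1c were alternatives chosen after seeing the data. Alternatives were pseudocounts, minimum means, scalings, a 4-fold threshold, means and sums. The calculation was tested on simulated data. Python 3.11.15, numpy 2.4.6, pandas 2.3.3 and matplotlib 3.10.9 were used.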

Additional observations from a re-analysis of the deposited data

How the results depend on the processing

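Without replicates a median was counted as moved when it changed by 0.2 or more on the log2 scale. With all types together, the medians kept their sign under every alternative run in the 3 comparisons. The main set held 16 genes. It held 34 with a minimum mean of 10, 9 with a minimum of 200 and 61 with no minimum, so the counts below have different bases. For GFP+ over GFP- HSCs the median was -0.41 with a minimum mean of 10, and the number at least 2-fold lower was 6 with that minimum, 8 with no minimum and 0 at 4-fold, against 3. For GFP- HSCs over MPPs the median was -0.66 with a minimum of 200 and -0.58 from summed levels, and the number lower was 19 with a minimum of 10, 2 with 200, 29 with none and 0 at 4-fold, against 6. For GFP+ HSCs over MPPs the median was -1.51 with a minimum of 10, -0.75 with 200 and -0.66 from sums, and the number lower was 25 with a minimum of 10, 4 with 200, 39 with none and 5 at 4-fold, against 9. These changes follow from which genes enter, or from the weight of Hist1h1c in sums. The sum of the other 67 genes gave -0.30, -0.99 and -1.30 in the 3 comparisons. Shares of all genes were not computed beside the counts at these settings. By type, signs turned for GFP+ over GFP- HSCs: H1 to 0.057 from sums, H2B from -0.01 to 0.018 as a mean, and H3 from 0.21 to -0.45 (minimum 10), -0.24 (no minimum) and -0.24 (sums). Rescaling to equal totals or upper quartiles turned the direction of 0 of the 16 genes in any comparison; the upper quartile moved the median of all genes by 0.11 for GFP- HSCs over MPPs, so on that scale ratios there are about 0.11 higher for histone genes and other genes alike. No paired analysis was possible because each population has 1 library. Depth is unknown, and genes with few counts are the least certain.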

Other observations

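Histone chaperones, which carry histones to and from DNA, were mostly lower in GFP+ than in GFP- HSCs, in 25 of 29 genes with a median log2 ratio of -0.30, and 0 of 29 were 2-fold apart. In GFP- HSCs against MPPs 26 of 29 were lower, with a median of -0.48, and 1 was at least 2-fold lower. That gene, Npm3, stood at 34 in GFP+ HSCs, 64 in GFP- HSCs and 244 in MPPs. The nucleolar chaperone gene Ncl, the most abundant of the list, stood at 23360 in GFP+ HSCs, 27883 in GFP- HSCs and 39914 in MPPs. Ssrp1, a subunit of the FACT complex, stood at 14274 in GFP+ HSCs, 15095 in GFP- HSCs and 21287 in MPPs. Supt6 ran the other way, at 3897 in GFP+ HSCs, 3356 in GFP- HSCs and 2985 in MPPs. Mcm2 and Chaf1a are counted in this list and among the S phase genes. Npm3 and Supt6 were named after their values were seen.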
